A study of Mus musculus with 27 samples.

Results

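The 6 aquaporin genes followed here in every library of the series were Aqp1, Aqp3, Aqp4, Aqp7, Aqp8 and Aqp11. They were chosen by name, as the rows of the count table whose Ensembl identifiers map to those 6 symbols, which is 6 of the 52550 genes counted. The count table holds 12 aquaporin genes in all, and the other 6 are given by their counts at the end.

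The study sequenced poly-A RNA of 3 gut regions, colon, cecum and ileum, in male C57BL/6 mice. They were 6 weeks old on arrival and were acclimatized for 7 days. One set of mice then received, over 60 days, a diet with 30 ug of arsenic per g, of which arsenite made up 72.7%, DMA 19.0%, arsenate 7.3% and MMA 1.0% (DMA and MMA are the methylated forms that the body makes of arsenic). The other set ate standard feed. No genotype beyond the strain is given in the labels used here, so no group carries a stated transgene or deletion. There were 4 colon, 5 cecum and 5 ileum libraries on arsenic feed and 5 colon, 4 cecum and 4 ileum libraries on control feed, 27 in all. Each library held 15717600 to 18208518 counted reads. The labels number the libraries without saying that equal numbers are the same mouse. Tests that span regions therefore treated the libraries as independent, although some may share a mouse.

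Aquaporins are membrane pores that let water follow the osmotic gradient set up by salt and nutrient transport, which is how the gut takes up and secretes fluid. The classical members (here Aqp1, Aqp4 and Aqp8) pass mainly water, while the aquaglyceroporins (here Aqp3 and Aqp7) also pass glycerol and other small uncharged solutes, among them arsenite in its uncharged form. Aqp11 is a divergent member that sits in membranes inside the cell. Levels below are CPM (counts scaled to a common library size) after TMM scaling over the 27 libraries, as mean ± SD over libraries. A log2 fold is a difference ± SE from edgeR's quasi-likelihood test, and a gene counts as called when its p, adjusted by Benjamini-Hochberg over all genes tested in that comparison, was below 0.05.

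Libraries that stood apart from their groups touch several results. The library labelled colon control 1 had a mean Pearson r of 0.918 with the rest of its group, against 0.935 to 0.958 for the other 4. It held 0 counts of Hoxb13, a homeobox gene of the distal large intestine, where the other 8 colon libraries held 40.1 to 239 CPM. It also held the most Car1, a carbonic anhydrase of large intestine epithelium, of the 9 colon libraries (13027 CPM), and 161 CPM of Slc26a3, the chloride-bicarbonate exchanger of large intestine epithelium, against 776 to 2505 CPM in the other 8. In the ileum, arsenic 14 and 15 held 6.13 and 1.33 CPM of Fabp6, which binds bile acids in distal ileum epithelium, where the other 7 ileum libraries held 218 to 4268 CPM. Values without these libraries are given beside many of the comparisons that use them.

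Aqp8 was the main aquaporin transcript of the cecum and the colon, and the ileum had almost none. Arsenic libraries 11 to 15 of the cecum held 2417, 1841, 2261, 2111 and 2459 CPM, against 3263, 3398, 3328 and 3937 CPM in cecum control libraries 1, 2, 4 and 5. Every arsenic library lay below every control library of the cecum. In the colon, Aqp8 stood at 1227, 672, 1225 and 771 CPM in arsenic libraries 11, 12, 13 and 15, against 68.0, 923, 1648, 1558 and 946 CPM in control libraries 1 to 5. The colon diets overlapped, and the library labelled control 1 was far below the other 8. In the ileum the raw counts were 5, 0, 2, 0 and 1 in arsenic libraries 11 to 15 and 1, 1, 0 and 50 in control libraries 1, 2, 3 and 5. Ileum control 5, which held 50 of the 52 control counts, also held 23.3 CPM of Car1, against 0 to 0.621 CPM in the other 3 ileum controls, and the part of this in the Aqp8 count was not tested.

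Aqp4, a water channel best known from astrocytes and the stomach, was high in the colon alone among the 3 regions. The colon held 605, 272, 645 and 391 CPM in arsenic libraries 11, 12, 13 and 15, against 40.3, 457, 844, 1188 and 673 CPM in control libraries 1 to 5. The diets overlapped, and the library labelled control 1 was again the lowest. The cecum held 15.4 ± 5.34 CPM on arsenic feed (n = 5) and 21.0 ± 4.91 CPM on control feed (n = 4), and the ileum 6.78 ± 2.18 CPM on arsenic feed (n = 5) and 7.07 ± 3.07 CPM on control feed (n = 4). No cecum or ileum library reached the lowest colon library, and the cecum and ileum ranges overlapped in the arsenic mice but not in the controls.

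Aqp1, the water channel of red cells, capillary endothelium and kidney proximal tubule, had its highest level in the ileum. The ileum held 186, 330, 172, 197 and 614 CPM in arsenic libraries 11 to 15, against 419, 261, 238 and 254 CPM in control libraries 1, 2, 3 and 5. The diets overlapped, with arsenic 15 the highest of the 9. The colon came next, with 53.3 ± 4.61 CPM on arsenic feed (n = 4) and 48.7 ± 15.2 CPM on control feed (n = 5), and those diets overlapped too. The cecum was lowest, with 26.2, 29.2, 31.2, 29.5 and 30.6 CPM in arsenic libraries 11 to 15, against 25.0, 20.9, 23.1 and 25.2 CPM in control libraries 1, 2, 4 and 5. All 5 cecum arsenic libraries lay above all 4 cecum controls, by a gap of about 1 CPM at its narrowest.

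Aqp3, the aquaglyceroporin of skin and of epithelial basolateral membranes, was an ileum gene in these libraries. The ileum held 5.95, 25.7, 5.91, 12.8 and 42.8 CPM in arsenic libraries 11 to 15, against 21.0, 18.4, 11.9 and 8.90 CPM in control libraries 1, 2, 3 and 5. The arsenic libraries spread on both sides of the controls. The cecum and the colon gave raw counts of at most 15 in a library. Those 15 counts were in colon arsenic 11 (0.831 CPM), and no other cecum or colon library passed 8 counts.

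Aqp7, the aquaglyceroporin through which fat cells release glycerol, was also highest in the ileum, but its colon means were above its cecum means, where those of Aqp3 were below them. These are low values, and no difference between colon and cecum was called for either gene. The ileum held 12.8, 19.3, 10.9, 8.92 and 20.0 CPM in arsenic libraries 11 to 15, against 23.5, 17.0, 17.2 and 12.4 CPM in control libraries 1, 2, 3 and 5. The colon held 0.388, 3.59, 0.208 and 0.704 CPM in arsenic libraries 11, 12, 13 and 15, against 1.38, 1.17, 0.170, 0.378 and 2.15 CPM in control libraries 1 to 5. Diets overlapped in both regions, and colon arsenic 12 was the highest colon library. The cecum held 0.344 ± 0.330 CPM on arsenic feed (n = 5) and 0.704 ± 0.471 CPM on control feed (n = 4).

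Aqp11 varied least between regions. Its level was 76.0 ± 29.3 CPM in ileum arsenic libraries (n = 5) and 59.9 ± 2.85 CPM in ileum controls (n = 4), 48.7 ± 6.50 and 44.8 ± 6.38 CPM in cecum arsenic (n = 5) and cecum control (n = 4), and 27.4 ± 6.93 and 26.0 ± 14.3 CPM in colon arsenic (n = 4) and colon control (n = 5). The highest ileum library was arsenic 15 with 126 CPM, and the highest colon library was the one labelled control 1 with 50.0 CPM. By group mean the order was ileum, cecum, colon, and each neighbouring pair of groups overlapped except cecum control and colon arsenic.

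**Figure D1:**
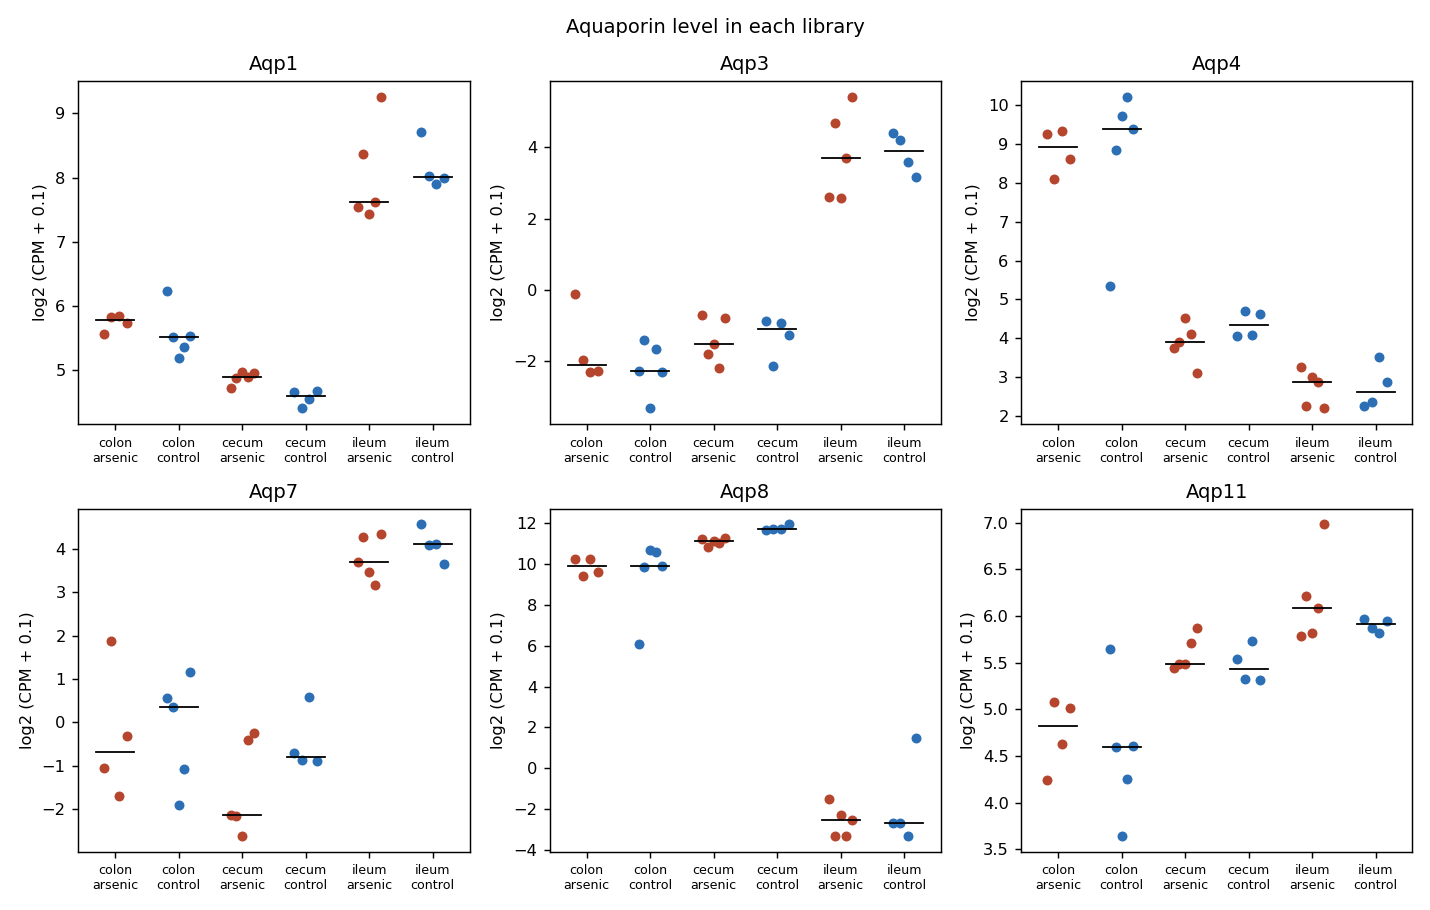
Level of each aquaporin in each of the 27 libraries, as log2 (CPM + 0.1), with 1 point a library in order of replicate number within a group, red for arsenic feed, blue for control feed and a black line at the median. Aqp8 is near the floor in the ileum and high in the cecum and colon, Aqp1, Aqp3 and Aqp7 are highest in the ileum, and the colon control library far below its group for Aqp4 and Aqp8 is control 1.

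The promoter letters of Aqp8 and Aqp3 are shown because these genes had opposite regional levels, and the Aqp7 window because it lies next to Aqp3 on chromosome 4. Each window holds 250 bases before and 50 bases after the annotated start, from RefSeq on GRCm38.p6, read 5′ to 3′ on the gene's strand. RefSeq windows were found for 5 of the 6 genes, and Aqp7 has a second start whose window is not shown. Capitals mark matches, on either strand, to the motifs searched.
Aqp8 (chr7:123462044-123462343, plus strand): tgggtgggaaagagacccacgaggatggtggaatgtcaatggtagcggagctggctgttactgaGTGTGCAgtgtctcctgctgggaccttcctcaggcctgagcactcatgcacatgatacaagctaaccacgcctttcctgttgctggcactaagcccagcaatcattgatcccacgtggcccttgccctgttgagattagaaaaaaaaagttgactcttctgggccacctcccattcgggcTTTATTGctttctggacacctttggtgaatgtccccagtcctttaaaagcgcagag
Aqp3 (chr4:41098134-41098433, minus strand): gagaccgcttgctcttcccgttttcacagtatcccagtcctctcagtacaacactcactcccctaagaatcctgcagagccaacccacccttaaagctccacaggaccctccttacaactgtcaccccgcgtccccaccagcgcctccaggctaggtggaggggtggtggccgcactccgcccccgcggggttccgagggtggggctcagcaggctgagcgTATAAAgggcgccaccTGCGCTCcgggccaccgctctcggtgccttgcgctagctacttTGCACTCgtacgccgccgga
Aqp7 (chr4:41048087-41048386, minus strand): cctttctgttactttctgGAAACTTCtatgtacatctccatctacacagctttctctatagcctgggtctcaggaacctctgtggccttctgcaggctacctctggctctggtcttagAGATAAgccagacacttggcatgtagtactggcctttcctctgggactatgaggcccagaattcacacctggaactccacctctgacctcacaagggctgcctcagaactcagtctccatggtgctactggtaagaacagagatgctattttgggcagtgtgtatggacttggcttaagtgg
In the Aqp8 window a match to the letters TTTATTG, one of the forms that the gut homeobox factor CDX binds, began 6 bases before the start, and TTTATTG or TTTATGG occurred in 7.20% of 32851 RefSeq windows of the same length. In the Aqp3 window TATAAA, the TATA box, began 29 bases before the start (13.6% of windows). Aqp3 also held 2 matches to the core of the metal response element, searched as TGCACNC or TGCGCNC, and Aqp8 held 1 on the reverse strand (25.7% of windows), while the Aqp11 window, not shown, held 2. The Aqp7 window held AGATAA, which factors such as Gata4 bind (11.2% of windows), and GAANNTTC, a pair of heat shock element units (7.86% of windows). The motifs searched also included the core letters for HNF4 (CAAAGTC or CAAAGGTC), those for HNF1 (GTTAAT) and the core of the antioxidant response element (TGACNNNGC), and both strands were read for each. The printed windows held none of those 3, and a match or its lack is a description of letters in these windows.

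Aqp7 and Aqp3 are neighbours. In the GENCODE M21 annotation of GRCm38, Aqp7 (ENSMUSG00000028427) spans chr4:41033074-41048139 and Aqp3 (ENSMUSG00000028435) spans chr4:41092722-41098183, both on the minus strand and 44.6 kb apart. Both were lower in the cecum than in the ileum on either feed, by a log2 difference of -5.90 ± 0.75 for Aqp3 and -5.37 ± 0.73 for Aqp7 in arsenic mice, and -5.50 ± 0.44 and -4.65 ± 0.57 in control mice (edgeR adjusted p = 1.77e-05, 3.33e-05, 1.41e-07 and 1.58e-05). The genes on either side did not share that drop. Nfx1, the next gene before Aqp7, differed by -0.12 ± 0.07 in arsenic mice and 0.04 ± 0.10 in control mice (edgeR adjusted p = 0.183 and 0.727). Nol6, the next gene after Aqp3, differed by -0.36 ± 0.10 in arsenic mice and 0.09 ± 0.14 in control mice (edgeR adjusted p = 0.00689 and 0.601).

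**Figure D2:**
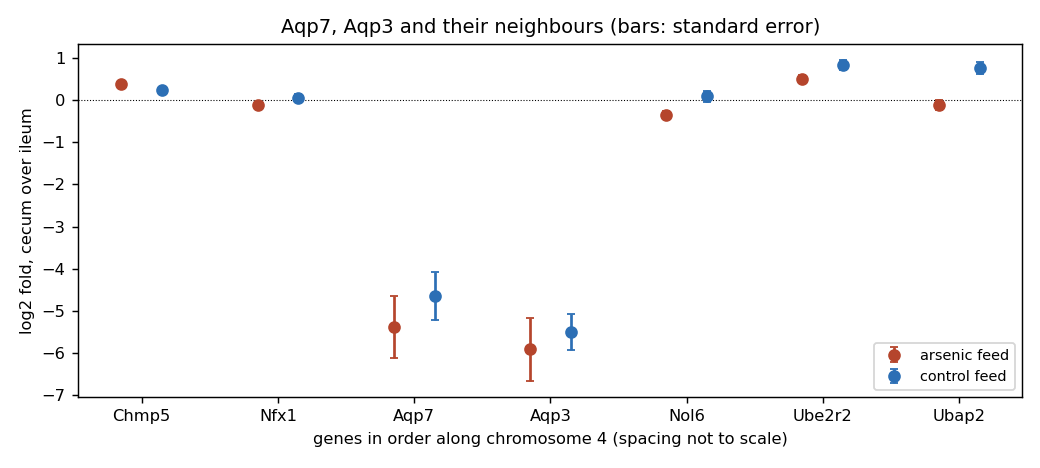
Log2 fold of cecum over ileum, with its standard error, for Aqp7, Aqp3 and the 5 genes around them on chromosome 4, in arsenic mice (red) and control mice (blue). Aqp7 and Aqp3 lie between -4.65 and -5.90, and the other 5 genes between -0.36 and 0.83.

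The first set of comparisons asked how the aquaporins differ between gut regions, within each feed. Against the ileum, the cecum of arsenic mice had 6 of the 6 aquaporins called, 2 higher and 4 lower, where 52.2% of the 17022 genes tested were called (25.0% higher and 27.1% lower). Aqp8 was higher, with 2218 ± 251 CPM in the cecum against 0.0851 ± 0.103 CPM in the ileum (n = 5 each, edgeR adjusted p = 3.93e-12). Its fitted fold is not given, because the 5 ileum libraries held 8 counts in all. Aqp4 was also higher, by a log2 fold of 1.17 ± 0.31 (edgeR adjusted p = 0.0059), a call that was lost with all 27 libraries in 1 fit (adjusted p = 0.0642). Aqp1 was 10.3-fold lower in the cecum, at a log2 fold of -3.37 ± 0.32 (edgeR adjusted p = 1.11e-06). Aqp11 was lower by a log2 fold of -0.65 ± 0.22 (edgeR adjusted p = 0.0225), but at -0.36 it was not called without ileum arsenic 14 and 15 (adjusted p = 0.104), nor was it called with no filter on low counts (adjusted p = 0.0552), without ileum arsenic 15 (-0.35, 0.0751), or without cecum arsenic 11 or 13 (0.0669 and 0.0633). Without ileum arsenic 14 and 15 the other values were -2.98 for Aqp1, 1.04 for Aqp4, -5.33 for Aqp3 and -5.37 for Aqp7, all still called.

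In control mice 4 of the 6 were called between cecum and ileum, 1 higher and 3 lower, where 54.9% of 16882 genes were called (28.4% higher and 26.5% lower). Aqp8 was higher, with 3482 ± 309 CPM in the cecum against 0.699 ± 1.32 CPM in the ileum (n = 4 each, edgeR adjusted p = 1.81e-05), and Aqp1 was 12.5-fold lower, at -3.64 ± 0.24 (edgeR adjusted p = 4.06e-08). Aqp4 stood at 1.56 ± 0.73 and Aqp11 at -0.43 ± 0.31 in log2 units (edgeR adjusted p = 0.0892 and 0.258). These fits share the spread of the 3 regions, and without the library labelled colon control 1 both passed, at 1.53 and -0.46 (edgeR adjusted p = 0.00331 and 0.0333), which made 6 of 6. Aqp4 was also called with all 27 libraries in 1 fit (1.57, adjusted p = 0.0262).

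Colon and cecum differed mainly in Aqp4. Of the 6 genes, 4 were called on arsenic feed, 2 higher and 2 lower in the colon, where 38.6% of genes were called (22.5% higher and 16.2% lower). On control feed 3 were called, 2 higher and 1 lower, where 47.2% of genes were called (21.9% higher and 25.3% lower). Aqp4 was 32.8-fold higher in the colon in arsenic mice and 30.7-fold higher in control mice, at log2 folds of 5.04 ± 0.34 and 4.94 ± 0.79 (edgeR adjusted p = 3.09e-07 and 0.000388). The control value was 5.26 without the library labelled colon control 1 (edgeR adjusted p = 2.15e-06). Aqp8 was lower in the colon of arsenic mice, by -1.10 ± 0.25 in log2 units (edgeR adjusted p = 0.00252), a call that was lost with all 27 libraries in 1 fit (adjusted p = 0.127). In control mice it differed by -1.75 ± 0.81 without passing the test (edgeR adjusted p = 0.0974), and by -1.44 without colon control 1 (edgeR adjusted p = 0.0677). With all 27 libraries in 1 fit it was called (adjusted p = 0.0202), as it was without ileum control 5 (adjusted p = 0.0393).

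Aqp1, which capillary endothelium carries, was higher in the colon than in the cecum, as were markers of blood vessels and of other cell types. It differed from the cecum by 0.95 ± 0.31 in arsenic mice and 1.05 ± 0.21 in control mice in log2 units (edgeR adjusted p = 0.0285 and 0.00141). The arsenic call was lost in 8 of the 14 fits that left out 1 library, each of the 5 cecum arsenic libraries and colon arsenic 12, 13 and 15 (adjusted p up to 0.0811), and with no filter (adjusted p = 0.0886). The control call was kept in every fit that left out 1 library, at 0.86 to 1.16. In the same comparison 10 of 13 endothelial markers were higher in the colon of arsenic mice and 12 of 13 in control mice. Their medians were 1.01 and 1.04, and 22.5% and 21.9% of all genes were higher. On each feed, 10 of 10 smooth muscle, 9 of 9 enteric neuron and 6 of 6 lymphatic markers were higher too. The part of these cell types in Aqp1 was not tested. Between cecum and ileum the endothelial median was -0.55 in arsenic mice and -0.26 in control mice, where Aqp1 stood at -3.37 and -3.64. Between colon and ileum that median was 0.50 in arsenic mice and 0.91 in control mice, where Aqp1 stood at -2.42 and -2.59. There 5 and 10 of the 13 markers were higher and 0 lower, while 32.8% and 27.7% of all genes were higher. In bulk samples, fewer cells of a type and less RNA per cell cannot be told apart.

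Aqp11 was lower in the colon than in the cecum, by -0.74 ± 0.24 in arsenic mice and -0.78 ± 0.29 in control mice (edgeR adjusted p = 0.0231 and 0.0444). The control call stood close to the threshold. It was lost under RLE scaling (adjusted p = 0.0551), upper-quartile scaling (0.0912) and with no filter (0.121), and in 12 of the 13 fits that left out 1 library (adjusted p up to 0.108), while without the library labelled colon control 1 the difference was -1.14 (edgeR adjusted p = 0.000144). The arsenic call was lost without colon arsenic 11 or 13 (adjusted p = 0.0763 and 0.0621). Aqp3 and Aqp7 were low in both regions and were not called, at 0.04 ± 1.07 and 1.91 ± 0.83 in arsenic mice and -1.17 ± 0.62 and 0.61 ± 0.60 in control mice (edgeR adjusted p = 0.984, 0.084, 0.136 and 0.426). Colon arsenic 12 decided the size of the Aqp7 value in arsenic mice, which was 0.41 without it (adjusted p = 0.683), and Aqp7 passed without colon arsenic 13 (2.27, adjusted p = 0.0374).

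Between colon and ileum all 6 genes were called on both feeds, Aqp4 and Aqp8 higher and the other 4 lower in the colon, where 59.1% of genes were called in arsenic mice (32.8% higher and 26.3% lower) and 52.2% in control mice (27.7% higher and 24.5% lower). Aqp4 differed by 6.20 ± 0.37 in arsenic mice and 6.50 ± 0.86 in control mice on the log2 scale, and Aqp3 by -5.87 ± 0.81 and -6.66 ± 0.43 (edgeR adjusted p = 1.32e-08, 6.39e-05, 3.77e-05 and 2.33e-08). Aqp7 differed by -3.46 ± 0.67 in arsenic mice and -4.04 ± 0.48 in control mice, Aqp1 by -2.42 ± 0.34 and -2.59 ± 0.21, and Aqp11 by -1.40 ± 0.24 and -1.21 ± 0.29. Aqp8 stood at 974 ± 294 CPM in the colon and 0.0851 ± 0.103 CPM in the ileum of arsenic mice (edgeR adjusted p = 2.4e-11), and at 1029 ± 633 and 0.699 ± 1.32 CPM in control mice (edgeR adjusted p = 4.69e-05). All 12 of these calls were kept in every fit that left out 1 library and in every other setting tried, but some values moved. In arsenic mice, Aqp7 was at -4.96 without colon arsenic 12 and Aqp3 at -7.09 without colon arsenic 11. Without ileum arsenic 14 and 15, Aqp1 was at -2.04, Aqp3 at -5.30, Aqp4 at 6.07, Aqp7 at -3.46 and Aqp11 at -1.11. In control mice without the library labelled colon control 1, Aqp1 was at -2.82, Aqp3 at -6.59, Aqp4 at 6.79, Aqp7 at -4.17 and Aqp11 at -1.60.

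Within the colon, the lowest and highest levels of Aqp4 and Aqp8 went with a marker of position. The library labelled colon control 1, with 0 CPM of Hoxb13, had the lowest of both. Colon control 3 and 4, with 239 and 221 CPM of Hoxb13, had the highest Aqp8 of the 9 colon libraries, 1648 and 1558 CPM, and the highest Aqp4, 844 and 1188 CPM. Colon arsenic 12, with 40.1 CPM of Hoxb13, was the lowest arsenic library for both. Aqp11 ran the other way, with 50.0 CPM in control 1 and 12.4 CPM in control 3. Between regions Aqp8 did not go with Hoxb13. Cecum libraries held at most 1 count of Hoxb13 and 1841 to 3937 CPM of Aqp8. Over the 27 deviations of a library from its group mean, Pearson r on log2 CPM was 0.66 between Aqp4 and Aqp8 and -0.80 between Aqp4 and Aqp11. These points share their libraries and depth, and colon control 1 is among them. The ileum libraries are among them too, where Aqp8 deviations rest on 0 to 5 counts on arsenic feed and 0 to 50 on control feed. Whether the point along the colon at which tissue was taken made these differences was not tested.

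In the ileum, the library with the least Fabp6, arsenic 15, had the highest Aqp1, Aqp3 and Aqp11 of its region. Control 1, with the next lowest Fabp6 among the other 7 libraries (218 CPM), had the highest Aqp1 of the controls, 419 CPM. Arsenic 14, with 6.13 CPM of Fabp6, did not follow, and its 197 CPM of Aqp1 was near that of arsenic 11 (186 CPM), which held 3875 CPM of Fabp6. The part of sampling position in these values was not tested.

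**Figure D3:**
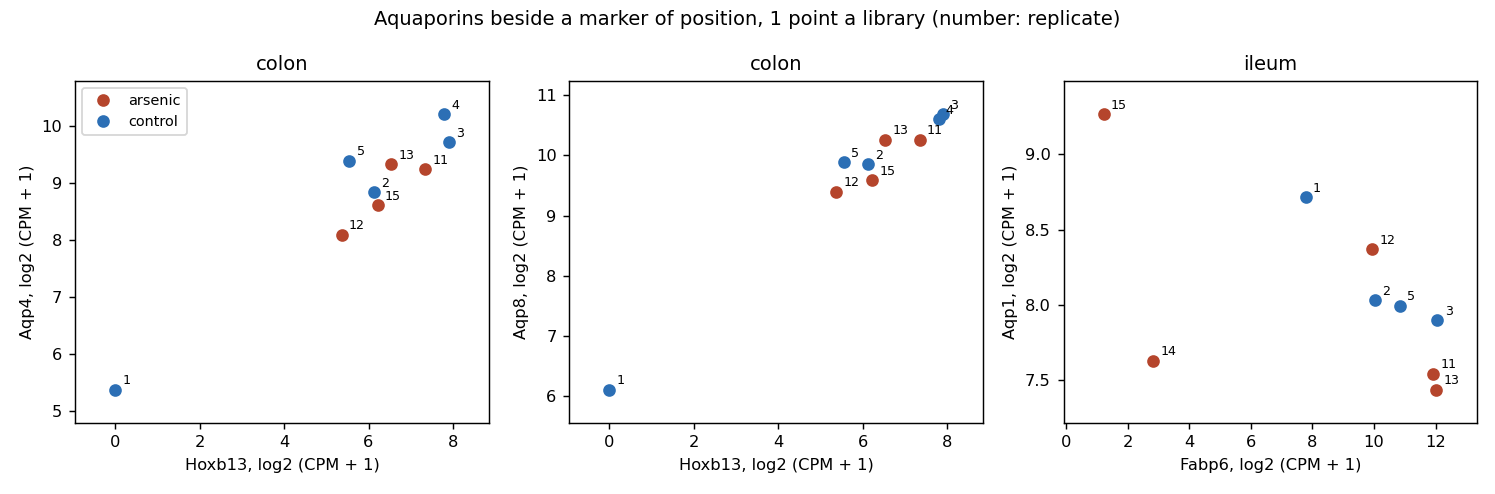
Level of an aquaporin against a marker gene, both as log2 (CPM + 1), with 1 numbered point a library, red for arsenic feed and blue for control feed: Aqp4 and Aqp8 against Hoxb13 in the colon, and Aqp1 against Fabp6 in the ileum. Colon control 1 is alone at 0 CPM of Hoxb13 with 40.3 CPM of Aqp4 and 68.0 CPM of Aqp8, and ileum arsenic 14 and 15 are alone at the low end of Fabp6 with 197 and 614 CPM of Aqp1.

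The second set of comparisons asked what arsenic feed did to each aquaporin within a region, and the cecum was the only region with a call. There Aqp8 fell and Aqp1 rose on arsenic feed, 2 of the 4 aquaporins that passed the count filter, where 25.2% of 15590 genes were called (11.3% higher and 13.9% lower). Aqp8 averaged 2218 ± 251 CPM in arsenic mice (n = 5) and 3482 ± 309 CPM in control mice (n = 4), a log2 fold of -0.61 ± 0.09, or 1.53-fold lower (edgeR adjusted p = 0.00031). Its raw counts did not overlap either, with 29284 to 37866 in arsenic libraries against 47230 to 62105 in control libraries. Aqp1 averaged 29.3 ± 1.93 CPM in arsenic mice (n = 5) and 23.6 ± 1.99 CPM in control mice (n = 4), a log2 fold of 0.36 ± 0.08, or 1.28-fold higher (edgeR adjusted p = 0.00562). Both calls held under RLE and upper-quartile scaling, with no filter, with DESeq2 and without any 1 library, and both were lost with all 27 libraries in 1 fit, where the folds were -0.65 and 0.32 (adjusted p = 0.539 and 0.532).

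Markers of other cell types were read in the same cecum libraries, where 11.3% of all genes were called higher and 13.9% lower. The summed level of 12 enterocyte markers was 24821 to 30104 CPM in arsenic libraries and 32451 to 33899 CPM in control libraries, with 6 of the 12 lower, 0 higher and a median log2 fold of -0.25. The summed level of 13 endothelial markers was 101 to 115 CPM in arsenic libraries and 81.9 to 91.1 CPM in control libraries, with 3 of the 13 higher, 0 lower and a median log2 fold of 0.33, and the other 10 did not pass. All 13 endothelial and all 12 enterocyte markers had counts in both groups. Smooth muscle markers were higher in 4 of 10 cases, with a median of 0.35. The part of these cell types in the Aqp8 and Aqp1 differences was not tested. The TMM factors of the cecum libraries did not overlap between diets, at 0.903 to 0.985 on arsenic feed and 0.852 to 0.884 on control feed.

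The other cecum aquaporins did not pass. Aqp4 differed by -0.40 ± 0.28 and Aqp11 by 0.16 ± 0.10 in log2 units (edgeR adjusted p = 0.324 and 0.273). Aqp3 and Aqp7 were below the count filter. With no filter they stood at -0.06 ± 0.58 and -0.98 ± 0.52 (edgeR adjusted p = 0.952 and 0.241), from 2 to 8 counts of Aqp3 and 1 to 11 counts of Aqp7 per arsenic library, against 2 to 7 counts of Aqp3 and 7 to 20 counts of Aqp7 per control library.

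In the ileum 0 of the 5 aquaporins tested were called, where 7.30% of 16305 genes were (4.02% higher and 3.28% lower), and 0 passed at an unadjusted p under 0.05 with edgeR or were called by DESeq2. Aqp1 differed by -0.01 ± 0.38, Aqp3 by 0.25 ± 0.59, Aqp4 by -0.09 ± 0.31, Aqp7 by -0.33 ± 0.26 and Aqp11 by 0.30 ± 0.22 (edgeR adjusted p = 0.987, 0.838, 0.898, 0.477 and 0.439). Without ileum arsenic 14 and 15, Aqp3 stood at -0.28, Aqp1 at -0.36 and Aqp11 at 0.04, and none was called (edgeR adjusted p = 0.825, 0.482 and 0.874). Aqp8 was below the filter.

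In the colon 0 of 5 were called, where 0.649% of 16492 genes were (0.364% higher and 0.285% lower), and again 0 passed at an unadjusted p under 0.05 with edgeR or were called by DESeq2. Aqp4 averaged 478 ± 177 CPM on arsenic feed (n = 4) and 641 ± 429 CPM on control feed (n = 5), a log2 fold of -0.42 ± 0.72, and Aqp8 974 ± 294 and 1029 ± 633 CPM, a log2 fold of -0.07 ± 0.68 (edgeR adjusted p = 0.866 and 0.979). Without the library labelled colon control 1 these became -0.72 and -0.38, and Aqp1, at 0.14 ± 0.19 with that library, became 0.35 (edgeR adjusted p = 0.317, 0.49 and 0.0928). Aqp7 differed by 0.23 ± 0.87 and Aqp11 by 0.08 ± 0.37 (edgeR adjusted p = 0.948 and 0.956), or by 0.35 and 0.46 without that library (edgeR adjusted p = 0.88 and 0.352). Aqp3 was below the count filter. The standard error of Aqp8 in the colon, 0.68, was larger than the change of 0.61 by which it fell in the cecum.

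Whether the arsenic effect differed between regions was tested in 1 fit of all 27 libraries. It was called for 0 of the 6 aquaporins, where 7.62% of 17763 genes were called, with 0 at an unadjusted p under 0.05 and 0 by DESeq2. For Aqp8 the arsenic effect in the colon minus that in the cecum was 0.57 ± 0.85 in log2 units (edgeR adjusted p = 0.946), and for Aqp1 the effect in the cecum minus that in the ileum was 0.28 ± 0.40 (edgeR adjusted p = 0.703). Of all genes 0% were called for the colon minus cecum difference and 11.4% for the cecum minus ileum difference. An effect of arsenic feed that differs between regions is thus not shown for these genes.

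**Figure D4:**
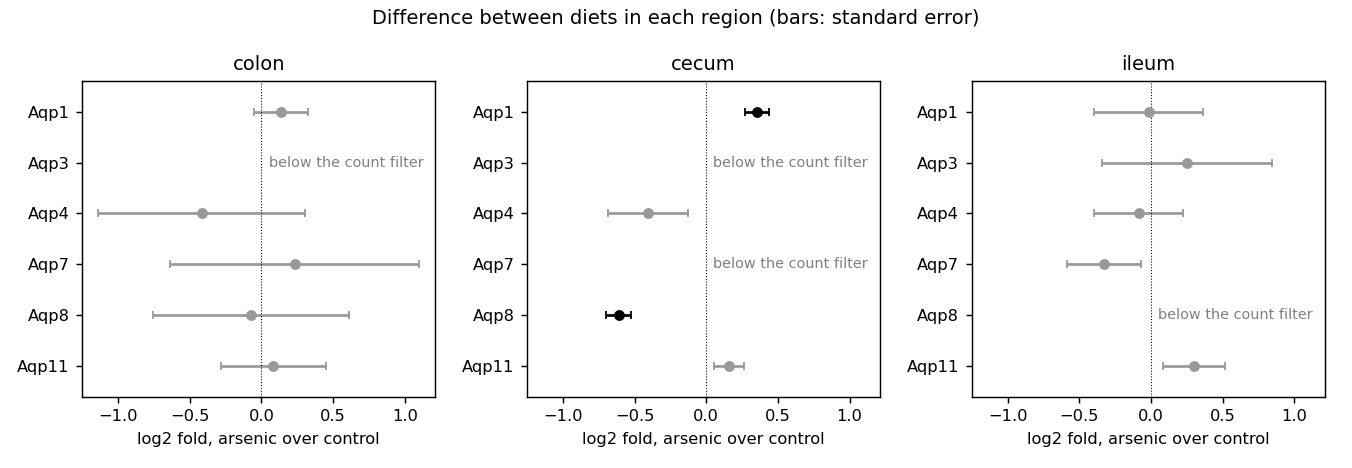
Log2 fold of arsenic over control feed for each aquaporin in the colon, the cecum and the ileum, with its standard error; black points were called and grey points were not. Aqp1 (0.36) and Aqp8 (-0.61) in the cecum are the black points. For Aqp4, Aqp7, Aqp8 and Aqp11 the bars are widest in the colon, for Aqp1 the widest is in the ileum, and genes below the count filter of a region have no point there.

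Levels can be compared between genes only per length. Divided by the annotated exonic bases of each gene, the summed level of all 12 aquaporins was 1422 CPM per kb in cecum arsenic and 2220 CPM per kb in cecum control, 717 and 776 CPM per kb in colon arsenic and colon control, and 139 and 134 CPM per kb in ileum arsenic and ileum control. Aqp8 made up 98.6% of that sum in cecum arsenic and 99.2% in cecum control libraries, and 85.8% and 77.8% in colon arsenic and colon control. In the colon Aqp4 followed with 10.5% on arsenic feed and 12.1% on control feed. Aqp1 made up 81.7% and 82.8% in ileum arsenic and ileum control, followed there by Aqp3, Aqp11 and Aqp7 at 4.07 to 6.54% on arsenic feed and 4.65 to 6.09% on control feed.

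The shares in the colon and the order in the ileum depend on the length used. Aqp4 and Aqp11 have long annotated exons, 6233 and 9418 bases, against median coding transcripts of 1275 and 2316.5 bases. With the median transcript as the length, Aqp4 made up 34.4% of the colon sum on arsenic feed and 37.3% on control feed, and Aqp8 62.1% and 53.2%. Aqp11 then made up 20.6% of the ileum sum on arsenic feed and 16.6% on control feed, above Aqp3 and Aqp7. In the library labelled colon control 1, Aqp8 made up the lowest colon share, 50.9% of the exonic sum, and Aqp1 the highest, 33.8%.

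**Figure D5:**
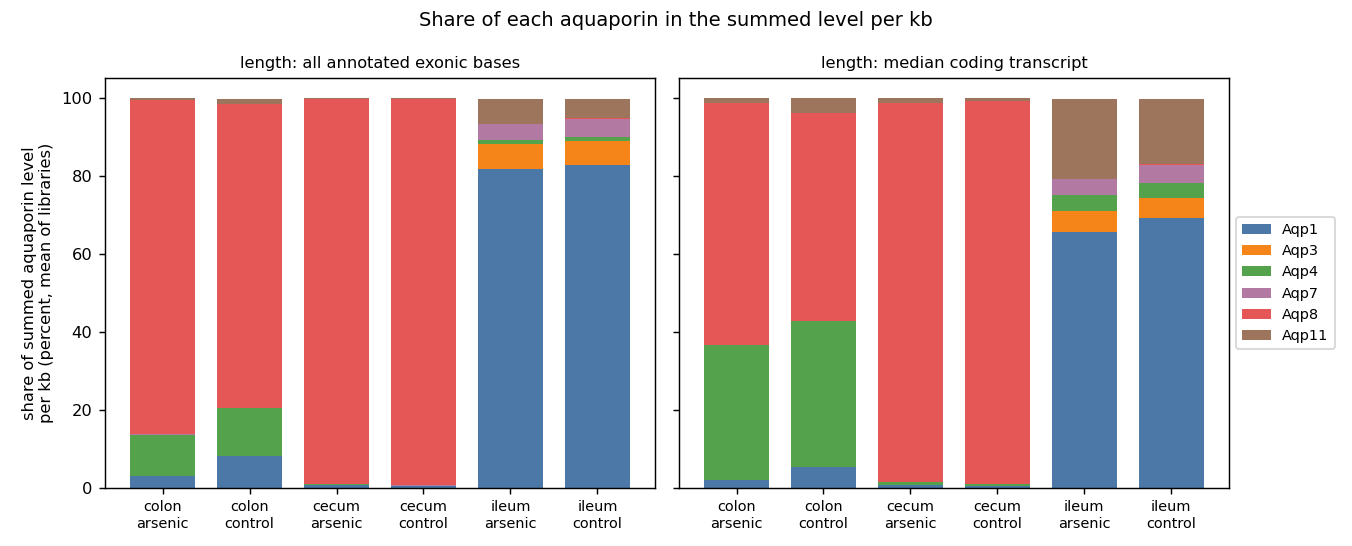
Share of each aquaporin in the summed level per kb of all 12 aquaporin genes, in percent, as the mean over the libraries of a group; the left panel divides by all annotated exonic bases and the right panel by the median coding transcript. Aqp8 fills the cecum bars in both panels, Aqp1 is the largest part of the ileum bars, and the Aqp4 part of the colon bars is 10.5 and 12.1% on the left and 34.4 and 37.3% on the right.

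Some values of Aqp7 went with those of lipid genes and of fat cell markers. Among 10977 genes averaging 5 CPM or more, those whose deviations from the group means were most like those of Aqp7 included Lipe, the hormone-sensitive lipase (Pearson r = 0.825), and Cd36, a fatty acid transporter (0.813), over 27 libraries that share depth. Neither gene is among the 12 adipocyte markers used here. Aqp7 reached that average through the ileum. Cecum and colon libraries held 1 to 69 counts of it, so their deviations rest on low counts. In the colon, arsenic 12 held the highest Aqp7 and the highest summed level of 12 adipocyte markers of its diet, 2351 CPM, where the other 3 arsenic libraries held 335 to 840 CPM. Control 3 and 4, with 0.170 and 0.378 CPM of Aqp7, held 291 and 264 CPM of the adipocyte sum, where the other 3 controls held 845 to 1644 CPM. Between cecum and ileum the adipocyte list fell in 10 of 12 cases on arsenic feed and 9 of 12 on control feed, with medians of -3.13 and -2.69, and 1 marker was higher on each feed, where 27.1% and 26.5% of all genes were lower. The ileum did not show the same pattern, since arsenic 15 held the highest Aqp7 of its diet, 20.0 CPM, and the lowest adipocyte sum of the region, 404 CPM. The part of fat tissue in the Aqp7 level was not tested.

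By the same measure the genes most like Aqp1 were Retsat, Fbp2 and Atl2 (Pearson r = 0.943, 0.942 and 0.937), those most like Aqp11 were Ehhadh, Fmo5 and Ugdh (0.954, 0.937 and 0.930), and those most like Aqp4 were Sval1, Angptl7 and Pyroxd1 (0.913, 0.909 and 0.891). Those most like Aqp8 were Tlk1, Clmn and Relch (0.825, 0.778 and 0.775), and those most like Aqp3 were Serf2, Enpp3 and Cyp4v3 (0.803, 0.778 and 0.777). Aqp3 averaged over 5 CPM through the ileum, and its cecum and colon deviations rest on 0 to 15 counts a library. The ileum deviations of Aqp8 rest on 0 to 50 counts a library. Over the levels of the 27 libraries themselves, where the region sets the pattern, the leading genes were Cdr2, Ddhd2 and the sodium-glucose transporter Slc5a1 for Aqp1 (all 0.982). For Aqp3 they were Acsl5, Dgat1 and Tm4sf5 (0.977, 0.974 and 0.974), of which Acsl5 and Dgat1 encode enzymes of fatty acid activation and triglyceride synthesis. For Aqp4 they were Ggh, Anxa3 and St3gal3 (0.976, 0.974 and 0.974). For Aqp7 they were Erich4, Ormdl3 and Cd36 (0.957, 0.947 and 0.945), and for Aqp11 Msra, Pgrmc1 and Snx20 (0.975, 0.963 and 0.961). For Aqp8 they were the homeobox genes Hoxa9 and Hoxa10 and Clmn (0.989, 0.986 and 0.985).

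Genes that work beside the aquaporins were followed as lists. Of 41 genes of salt and acid-base transport across gut epithelium, 13 fell and 2 rose on arsenic feed in the cecum among 37 tested, with a median log2 fold of -0.11 against 0.02 for all genes. Of all genes tested there, 13.9% fell and 11.3% rose. Slc9a3, the main sodium-proton exchanger of the brush border, fell by 1.19 ± 0.12, the carbonic anhydrase Car4 by 0.72 ± 0.10 and the sulfate transporter Slc26a2 by 0.55 ± 0.09 in log2 units (edgeR adjusted p = 8.44e-05, 0.000439 and 0.000543). In the ileum 1 of 35 rose and 2 fell, near the 7.30% of all genes called there. These were the sodium channel subunit Scnn1a at 0.53 ± 0.13, Slc26a2 at -1.07 ± 0.23 and the monocarboxylate transporter Slc5a8 at -0.98 ± 0.26 (edgeR adjusted p = 0.0339, 0.0247 and 0.0458). In the colon 0 of 40 were called, where 0.649% of all genes were.

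Glycerol that enters through an aquaglyceroporin is phosphorylated and built into lipids. Of 18 genes of glycerol uptake, release and use, 7 fell and 3 rose on arsenic feed in the cecum, with a median log2 fold of -0.08 against 0.02 for all genes, where 13.9% of all genes fell and 11.3% rose. In the ileum and in the colon 0 of 18 were called, where 7.30% and 0.649% of all genes were. Gpat4 and Gpat3, which attach the first fatty acid to glycerol phosphate, fell by 0.68 ± 0.08 and 0.66 ± 0.11, and the phosphatidate phosphatase Lpin2 by 0.45 ± 0.07 (edgeR adjusted p = 5.14e-05, 0.000738 and 0.000645). Between regions, 11 of the 18 were lower and 3 higher in the colon than in the ileum of arsenic mice, and 11 lower and 2 higher in control mice, with medians of -0.99 and -1.24 against 0.07 and 0.02 for all genes. Of all genes, 26.3% were lower and 32.8% higher there in arsenic mice, and 24.5% lower and 27.7% higher in control mice.

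AQP4 protein is held at the cell membrane by the dystrophin complex. Of 9 genes of that complex, 6 were higher and 0 lower in the colon than in the cecum of arsenic mice, and 4 higher and 0 lower in control mice, with medians of 0.57 and 0.42, where 22.5% of all genes were higher in arsenic mice and 21.9% in control mice. These medians lay far below the log2 folds of 5.04 and 4.94 for Aqp4. In the same comparison 10 of 10 smooth muscle markers were higher on each feed, with medians of 1.11 in arsenic mice and 1.09 in control mice, and their part in the list was not tested. Against the ileum, 3 of the list were higher and 3 lower in the colon of arsenic mice, and 2 higher and 3 lower in controls. In the cecum against the ileum, 0 were higher and 6 lower on arsenic feed, and 1 higher and 5 lower on control feed. Of all genes, 32.8% were higher and 26.3% lower between colon and ileum in arsenic mice, and 27.7% and 24.5% in controls. Between cecum and ileum 25.0% were higher and 27.1% lower in arsenic mice, and 28.4% and 26.5% in controls. The log2 fold of Aqp4 was positive in each of these comparisons. With arsenic feed against control feed, Dtna (dystrobrevin alpha) rose in the cecum by 0.48 ± 0.12 (edgeR adjusted p = 0.0122). In the ileum Dag1 (dystroglycan) rose by 0.71 ± 0.15, while Dmd (dystrophin) and Dtna fell by 0.39 ± 0.08 and 0.75 ± 0.20 (edgeR adjusted p = 0.0246, 0.022 and 0.0478), and 0 of 9 were called in the colon. Between diets, 25.2% of all genes were called in the cecum, 7.30% in the ileum and 0.649% in the colon.

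The other 6 aquaporin genes were near the limit of detection. Summed over the 27 libraries, Mip held 1 count, Aqp6 3, Aqp2 4, Aqp5 63, Aqp9 104 and Aqp12 173. Aqp9, the liver aquaglyceroporin that passes arsenite in rat, had at most 23 counts in a library. Of these, Aqp12 alone passed the filter in any comparison, and it is described with the additional observations.

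The 6 genes lie on 4 chromosomes. In GENCODE M21 (GRCm38), Aqp1 (ENSMUSG00000004655) spans chr6:55336432-55348555 on the plus strand, Aqp8 (ENSMUSG00000030762) chr7:123462291-123468004 on the plus strand and Aqp11 (ENSMUSG00000042797) chr7:97724006-97738289 on the minus strand. Aqp4 (ENSMUSG00000024411) spans chr18:15389496-15410982 on the minus strand. An antisense gene, AC133525.2, overlaps the Aqp4 locus but none of its exonic bases, and the other 5 genes have no overlapping annotated gene.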

How the data were processed

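Messenger RNA of 27 gut libraries was sequenced as 150 bp paired reads from 2 ug of RNA each, per the labels. The authors deposited whole-number read counts per Ensembl gene. Per the submitters' processing notes, HISAT2 2.1.0, SAMtools, HTSeq 0.6.0 and DESeq2 1.6.3 were used; the genome build, annotation and strand setting are not given in the sources used here. Of 52550 genes, 52403 had a symbol. Library totals were 15717600 to 18208518 counts.

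Counts were analysed with edgeR 4.0.16 and limma 3.58.1 in R 4.3.3: filterByExpr (minimum count 10, minimum total 15), TMM scaling, robust quasi-likelihood F tests, Benjamini-Hochberg adjustment over all genes tested and a threshold of 0.05. The diet was tested within a region, the regions within a feed, and the difference of diet effects in 1 fit of 27 libraries. Levels are CPM with TMM factors over the 27 libraries. Lengths are from GENCODE M21. Likeness used log2 CPM with a prior count of 2. The alternatives were RLE and upper-quartile scaling, no filter, DESeq2 1.42.0, a replicate block, 1 fit of 27 libraries, plain CPM and leaving out libraries; leaving out ileum arsenic 14 and 15 together was chosen after seeing the data. Whether equal numbers pair libraries was checked from the correlation of their deviations from group means; every pair passed 0.1 between colon and cecum on control feed alone. The fits were tested on simulated data. Figures used Python 3.11.15, pandas 2.3.3 and matplotlib 3.10.9, with pseudocounts of 0.1 and 1.

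The members, the gene lists and the tests were chosen with earlier results of these data known. The 3 genes named per member by likeness were those of highest Pearson r (1 of them is not reported here), and the genes named in a list were the up to 3 with the smallest adjusted p among those called.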

Additional observations from a re-analysis of the deposited data

Results flagged for a closer look

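In each group of 4 or 5 libraries, the highest and the lowest value of each aquaporin were compared on the log2 scale with the rest of the group by Dixon's test, and 6 of 36 groups had a library that stood apart. Chance alone marks about 1 group in 20. In the library labelled colon control 1, both Aqp8 (68.0 CPM) and Aqp4 (40.3 CPM) were far below the other 4 controls, and the same library held 0 CPM of Hoxb13. Aqp8 in ileum control 5 was 2.68 CPM, from 50 counts, far above the other 3 controls, in a library that also held 23.3 CPM of Car1. Aqp1 in ileum control 1 was 419.3 CPM, above the other 3 controls, in the control library with the least Fabp6 (218 CPM). Aqp7 in cecum control 4 was 1.41 CPM, from 20 counts. Aqp3 in colon arsenic 11 was 0.831 CPM, from 15 counts.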

How the results depend on the processing

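RLE and upper-quartile scaling left the number of aquaporins called within 1.5 times of the value reported in all comparisons. Genes called between diets in the ileum were 1190, against 2141 with DESeq2, 2889 with all 27 libraries in 1 fit, 673 without ileum arsenic 14 and 15, and 121 to 1583 with 1 library left out. In the cecum the 3933 genes became 2021 and the 2 aquaporins became 0 with all 27 libraries in 1 fit. In the colon the 107 genes became 665 with DESeq2, 493 in the 27-library fit and 6 to 351 with 1 library left out. Genes whose diet effect differed between regions were 1353, against 827 with no filter, 899 without ileum arsenic 14 and 15, and 551 to 1866 with 1 library left out. The cause was not tested.

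Small differences between diets changed sign. Aqp1 in the ileum was 0.0104 with RLE scaling, 0.0106 with DESeq2, 0.0328 in the 27-library fit, and -0.41 to 0.25 with 1 library left out. Without ileum arsenic 14 and 15, Aqp3 was -0.28 and Aqp4 0.0686 in the ileum; with 1 library left out they ran from -0.27 to 0.50 and -0.25 to 0.26. In the colon, with 1 library left out, Aqp7 ran from -1.27 to 0.67, Aqp8 from -0.38 to 0.15 and Aqp11 from -0.10 to 0.46. Aqp3 between colon and cecum on arsenic feed was -0.0162 with RLE scaling, -0.0639 with no filter, -0.00967 with DESeq2, -0.0490 in the 27-library fit, -0.0129 with the replicate block, and -1.19 to 0.32 with 1 library left out. None of these passed the test. Plain CPM gave 20.5 for Aqp1 in cecum control, 59.0 for Aqp1 in colon arsenic and 3033 for Aqp8 in cecum control.

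The replicate block, fitted between regions within a feed, changed no aquaporin call. Of 24 same-number pairs 15 had a correlation of deviations over 0.1 (range -0.128 to 0.306) and 12 correlated best with their own number. Only between colon and cecum on control feed did every pair pass 0.1 (4 of 4, 0.131 to 0.253, 3 best with their own number). There the block gave 4.34 for Aqp4 and -2.35 for Aqp8, against 4.94 and -1.75 without it. The diets share no numbers.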

Other observations

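Aqp12, a pancreatic aquaporin, was a low transcript of the large intestine. Its counts summed to 61 in colon arsenic (4 libraries) and 55 in colon control (5), 30 in cecum arsenic (5) and 22 in cecum control (4), and 4 in ileum arsenic (5) and 1 in ileum control (4). In control mice it was called higher in the colon than in the ileum (edgeR adjusted p = 0.000174) and in the cecum than in the ileum (0.0014), but not between colon and cecum (log2 fold 0.72 ± 0.48, adjusted p = 0.236). In arsenic mice it was below the count filter in these comparisons and was not tested. Pancreatic acinar markers summed to 771 and 653 CPM in colon control 2 and 3 and to 159 CPM in colon arsenic 11. The other 6 colon libraries held 0.635 to 4.001 CPM of them. Aqp12 had 16, 10 and 8 counts in those 3 libraries and 6 to 21 in the other 6. Aqp5, a gland aquaporin, was the reverse, with 30 counts in ileum arsenic and 31 in ileum control of 63 in all.

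Genes of salt transport also differed by region. Of 39 tested, 21 were higher and 8 lower in the cecum than in the ileum of arsenic mice, and 23 higher and 8 lower in control mice, with medians of 0.73 and 1.07 in log2 units against -0.06 and -0.03 for all genes. Of all genes, 25.0% were higher and 27.1% lower in arsenic mice, and 28.4% higher and 26.5% lower in control mice. Between colon and cecum, 11 were higher and 8 lower in arsenic mice, and 12 higher and 12 lower in control mice, against 22.5% higher and 16.2% lower, and 21.9% higher and 25.3% lower, of all genes.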
